A study of Mus musculus with 5 samples.

Results

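The interferon response genes are described here in single cells of the mouse bone marrow stroma. The list names 36 genes, and each of the 36 was listed in every one of the 5 count matrices, which together hold 30099 gene symbols. The list falls into 3 groups. The interferon-gamma type group has 12 members, the chemokine Cxcl9, the guanylate-binding GTPases Gbp2, Gbp3, Gbp4, Gbp5, Gbp6, Gbp7 and Gbp9, and the immunity-related GTPases Iigp1, Igtp, Irgm1 and Irgm2. The type I group has 7 members, Ifit1, Ifit2, Ifit3, Isg15, Rsad2, Usp18 and Mx1. The other 17 members answer to both kinds of interferon or were not assigned to either.

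The study sorted tdTomato-positive cells from mouse femurs by flow cytometry and captured them on a BD Rhapsody instrument, with 1 library per group. Every mouse carried Lepr-cre and R26R-tdTomato, so that cells with present or past activity of the leptin receptor gene were marked. The aged-injury library came from mice of 18 months, 1 week after surgical ablation of the marrow, and the aged library from uninjured mice of 18 months. The exhausted library came from mice of 15 weeks that had 2 ablations, at the ages of 9 and 13 weeks, the naive library from mice of 15 weeks with 1 ablation, at 13 weeks, and the control library from uninjured mice of 15 weeks. The series text counts 4 groups and lists these 5. The labels give no number of animals, no sex and no batch, so the spread between animals is unknown. Every interval below is a 95% interval that covers counting error only, and no p-value is given.

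Interferons are signal proteins of immunity. Interferon-gamma, made mainly by T and natural killer cells, acts through the receptor chains Ifngr1 and Ifngr2 and, in the nucleus, a palindromic DNA element called GAS, and among its known targets are the guanylate-binding proteins, the immunity-related GTPases and Cxcl9. Type I interferons act through Ifnar1 and Ifnar2 and a complex with Stat2 and Irf9 that binds an element called ISRE, and the Ifit genes, Isg15 and Rsad2 are known targets. Many genes answer to both, and both kinds of interferon are known to act on blood stem cells and on the stroma of the marrow.

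The elements stand close to the transcription start of many members. Of the 36 members, 27 had an entry in the RefSeq promoter table of build GRCm38.p6, matched by gene symbol. Its windows, 300 bases long, were searched on both strands for GAAA, any 2 bases and GAAA again as ISRE, and for TTC, any 3 bases and GAA as GAS. ISRE letters were present for 7 of 8 interferon-gamma type members, 4 of 5 type I members and 5 of 14 other members, against 3.99% of the 27025 genes in the table. GAS letters were present for 4 of 8, 1 of 5 and 5 of 14, against 9.55% of all genes. Either one was found for 20 of 27 members, 74.1%, against 12.9% of all genes. The sequences below are the last 170 bases before the start site, 5′ to 3′ on the strand of the gene, for the 3 members of each of these 2 groups that had a match and the highest level in aged-injury reticular cells. Capitals mark the matches, and no ISRE match overlapped a GAS match.

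The interferon-gamma type members are shown first, because their promoters pair both elements in Gbp7 and Irgm2.
Gbp2, chr3:142620493-142620662, plus strand: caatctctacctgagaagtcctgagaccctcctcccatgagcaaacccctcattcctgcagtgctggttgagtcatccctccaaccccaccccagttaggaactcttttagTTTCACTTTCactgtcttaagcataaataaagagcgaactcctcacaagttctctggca
Gbp7, chr3:142530166-142530335, plus strand: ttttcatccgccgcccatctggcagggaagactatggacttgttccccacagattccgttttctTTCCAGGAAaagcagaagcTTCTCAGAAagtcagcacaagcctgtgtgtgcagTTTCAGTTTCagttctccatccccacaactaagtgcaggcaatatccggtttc
Irgm2, chr11:58214807-58214976, plus strand: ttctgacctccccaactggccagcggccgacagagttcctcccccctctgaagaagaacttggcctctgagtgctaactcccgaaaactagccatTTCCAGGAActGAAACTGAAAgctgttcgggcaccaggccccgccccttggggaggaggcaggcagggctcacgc

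The type I members are shown for their repeated ISRE letters.
Isg15, chr4:156200819-156200988, minus strand: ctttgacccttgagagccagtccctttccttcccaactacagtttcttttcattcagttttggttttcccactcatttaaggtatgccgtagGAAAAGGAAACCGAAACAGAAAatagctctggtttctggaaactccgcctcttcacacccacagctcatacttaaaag
Ifit1, chr19:34640719-34640888, plus strand: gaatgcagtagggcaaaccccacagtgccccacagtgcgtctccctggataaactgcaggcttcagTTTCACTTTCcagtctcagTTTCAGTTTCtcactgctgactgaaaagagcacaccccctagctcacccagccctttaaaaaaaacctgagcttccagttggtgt
Ifit3, chr19:34583359-34583528, plus strand: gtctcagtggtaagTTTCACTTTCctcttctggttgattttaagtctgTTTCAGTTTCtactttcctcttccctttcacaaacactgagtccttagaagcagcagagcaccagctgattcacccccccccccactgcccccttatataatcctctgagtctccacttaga

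Gbp2 held 1 ISRE match, Gbp7 held 1 ISRE match and 2 GAS matches, and Irgm2 held 1 of each. Isg15 held 3 ISRE matches in a row, and Ifit1 and Ifit3 held 2 each, with no GAS match in the window. The window of Cxcl9 held neither set of letters, which says only that these letters are not in it.

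Most of the cells that passed the filters were reticular cells, the Cxcl12-rich stromal cells that support blood formation. The matrices held 57968 cells, of which 47829 were kept, and a gate on marker genes that include no interferon gene put 32672 of them, 68.31%, in the reticular class. These were 14268 cells in aged-injury, 6388 in aged, 2491 in exhausted, 2877 in naive and 6648 in control, with 19945422 to 144386596 UMIs (unique molecular identifiers, counted transcript molecules) per library. All 7 reticular genes held back to check the gate, among them Vcam1, Grem1 and Il7, were at least 1.5-fold higher inside it than outside, with a median of 7.84-fold. The tdTomato transcript stood at 65.4 to 88.7 CPM in these cells. A CPM value is the UMIs of a gene per 1000000 UMIs summed over the gated cells of a library, and since it is not scaled by transcript length, levels are compared between libraries and not between genes. Reticular cells of aged-injury were deeper, with a median of 9077 UMIs per cell against 6648.5 in aged, 6543 in exhausted, 6907 in naive and 8324.5 in control. Pairs of libraries shared 0 to 5 cell labels. Other genes also differed within the reticular gate. Col1a1, the collagen gene of bone-forming cells, stood at 4562 CPM in aged-injury against 766 CPM in aged, Lepr at 2368 CPM against 4370.5 CPM, and the proliferation gene Mki67 at 17.3 CPM against 3.57 CPM. The 10 adipocyte markers summed to 261 CPM in aged-injury against 38.9 CPM in aged, and the 11 chondrocyte markers to 72.1 CPM against 9.29 CPM. The part of these shifts in the results below was not tested.

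The aged-injury library stood above the other 4 for nearly the whole list. Of the 36 members, 30 had their highest reticular level there, including 12 of 12 interferon-gamma type, 6 of 7 type I and 12 of 17 other members. Of the 10881 genes with at least 5 CPM in some library, 28.6% were highest in aged-injury. The exceptions were Ifit2, Ifitm3 and Psmb9, highest in control, Bst2 and Ifi35, highest in naive, and Irf1, highest in aged.

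**Figure D1:**
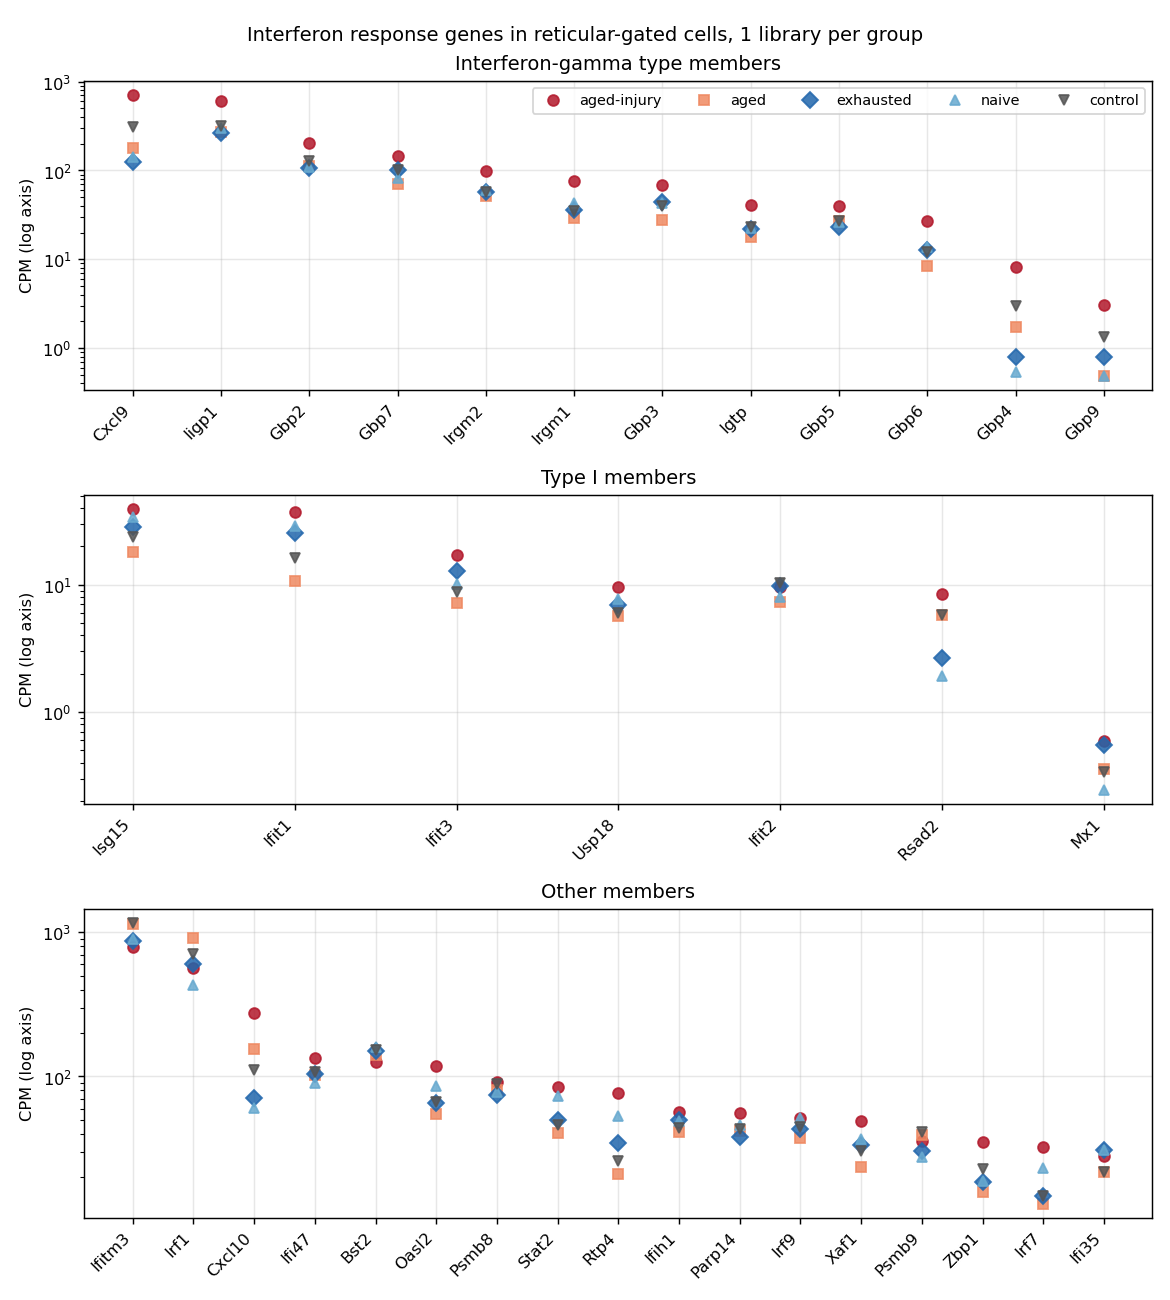
Level of each member in reticular-gated cells in CPM (log axis), 1 symbol per library, with interferon-gamma type members on top, type I members in the middle and other members at the bottom. The aged-injury symbol is the highest for 30 of the 36 members.

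Marrow ablation in aged mice was accompanied by higher levels of 17 of the 34 members measured in reticular cells, 0 members were lower, and 30 of 34 ratios lay above 1. A gene was counted as different when its CPM ratio was at least 2 in either direction and the interval left out 1, among genes with at least 5 CPM in either library. By the same rule 3.59% of the 10515 genes measured were higher in aged-injury and 1.66% were lower. The median log2 ratio was 1.20 over 11 interferon-gamma type members, 0.93 over 6 type I members and 0.45 over 17 other members, against 0.12 over all genes. The 2 members below 5 CPM in both libraries were Gbp9, at 3.04 CPM in aged-injury against 0.486 in aged, and Mx1, at 0.589 against 0.359.

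Cxcl9, a chemokine that draws T cells through the receptor Cxcr3, stood at 706 CPM in aged-injury against 180 CPM in aged, and at 124 CPM in exhausted, 141 CPM in naive and 311 CPM in control. Its aged-injury to aged ratio was 3.93 (3.84 to 4.01).

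Of the guanylate-binding proteins, large GTPases that attack the membranes of intracellular pathogens, 4 of the 6 measured passed the 2-fold mark. Gbp6 stood at 27.1 CPM in aged-injury against 8.34 CPM in aged, and at 12.6 in exhausted, 13.6 in naive and 12.1 in control, a ratio of 3.25 (2.93 to 3.61). Gbp3 stood at 68.1 CPM in aged-injury against 27.8 CPM in aged, and at 44.1 in exhausted, 43.5 in naive and 40.2 in control, a ratio of 2.45. Gbp7 stood at 144 CPM in aged-injury against 70.1 CPM in aged, and at 101 in exhausted, 82.3 in naive and 101 in control, a ratio of 2.06. In these 3 genes aged-injury was highest and aged lowest of the 5 libraries. Gbp7 lost its call with TMM scaling, at a ratio of 1.999, with the stricter cell filter, at 1.97, and with clusters in place of the gate, at 1.88. Gbp4 had the largest ratio, 4.71 (3.76 to 5.97), at low levels of 8.16 CPM in aged-injury against 1.73 CPM in aged. Its aged-injury level alone passed the minimum of 5 CPM, and Gbp4 lost its call with a minimum of 20 CPM. Gbp4 was also a gene of endothelial cells, at 57.1 CPM in the aged-injury endothelial gate, and the 14 endothelial markers summed to 79.9 CPM in reticular cells of aged-injury against 68.6 CPM in aged. Their part in the Gbp4 ratio was not tested. Gbp2 and Gbp5 missed the mark, with ratios of 1.81 (1.76 to 1.86) and 1.48 (1.39 to 1.57). The Gbp genes lie in clusters of close copies, and how reads that fit several copies were assigned is not given in the sources used here, so single Gbp values are uncertain.

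Of the immunity-related GTPases, which load onto vacuoles that hold parasites, 3 of 4 passed the mark. Iigp1 stood at 601 CPM in aged-injury against 274 CPM in aged, and at 264 in exhausted, 301 in naive and 317 in control, a ratio of 2.19 (2.15 to 2.23). Irgm1, a regulator of the family, stood at 76.9 CPM in aged-injury against 29.2 CPM in aged, a ratio of 2.63 (2.49 to 2.79), with 35.7 in exhausted, 43.4 in naive and 34.6 in control. Aged-injury was the highest library for both, and the lowest was exhausted for Iigp1 and aged for Irgm1. Iigp1 lost its call with clusters in place of the gate, at a ratio of 1.95, and without cells that held Kit, at 1.96. Igtp stood at 40.9 CPM against 17.8 CPM, a ratio of 2.30. Irgm2 stood at 98.7 CPM against 51.4 CPM, a ratio of 1.92 (1.84 to 2.01) that missed the mark. Irgm2 and Igtp are neighbours on chromosome 11, so counts of these 2 genes can also be shared.

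**Figure D2:**
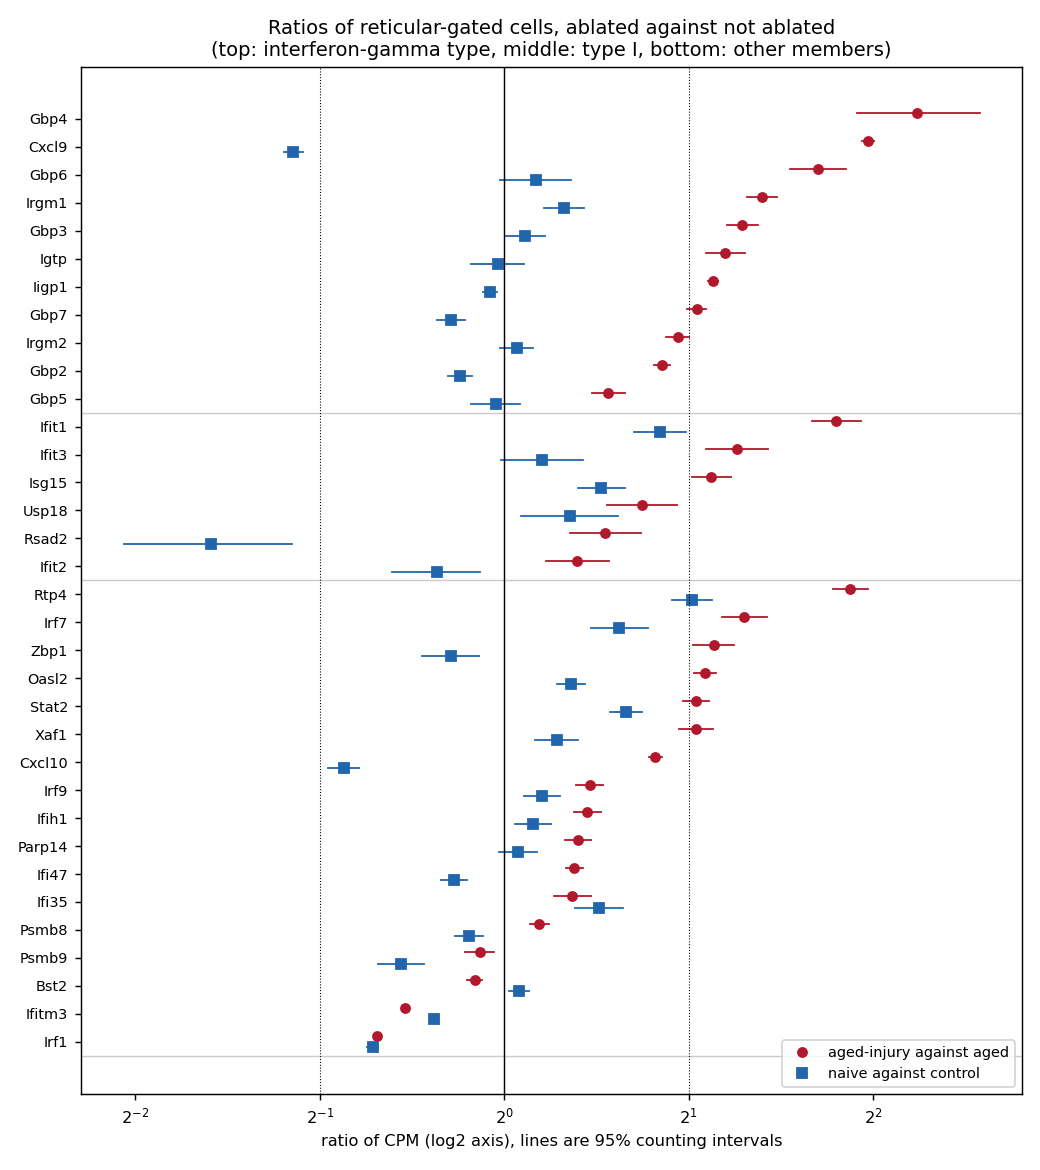
CPM ratio of each measured member in reticular-gated cells on a log2 axis, aged-injury over aged as red circles and naive over control as blue squares, with lines for 95% counting intervals and dotted lines at 2-fold. The red circles lie right of 1 for 30 of 34 members, while the blue squares lie on both sides.

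Of the 6 type I members measured, 3 passed the mark. Ifit1, which binds the ends of foreign RNA, stood at 37.1 CPM in aged-injury against 10.7 CPM in aged, and at 25.4 in exhausted, 29.0 in naive and 16.1 in control, a ratio of 3.48 (3.18 to 3.82). Isg15, a ubiquitin-like protein, stood at 39.3 CPM in aged-injury against 18.1 CPM in aged, and at 28.5 in exhausted, 34.0 in naive and 23.6 in control, a ratio of 2.18 (2.03 to 2.34). In erythroid-gated cells Ifit1 stood at 54.0 CPM in aged-injury against 13.4 CPM in aged, and the 9 erythroid markers summed to 144 CPM in reticular cells of aged-injury against 547 CPM in aged. Both ablated young libraries lay between aged-injury and control for Ifit1 and Isg15. Isg15 lost its call with thinned cells, at a ratio of 1.84. Ifit3 stood at 17.1 CPM in aged-injury against 7.16 CPM in aged, a ratio of 2.40 (2.14 to 2.69), and lost its call with a minimum of 20 CPM. Usp18, an enzyme that takes Isg15 off proteins and restrains type I signalling, had a ratio of 1.68, Rsad2 of 1.46 and Ifit2 of 1.32, all short of the mark. Summed over their members, the type I group held 122 CPM in aged-injury against 55.0 CPM in aged, and the interferon-gamma type group 2016 CPM against 799.9 CPM.

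Among the other 17 members, 6 passed the mark. Rtp4, an interferon-induced chaperone-like protein, stood at 77.3 CPM in aged-injury against 21.1 CPM in aged, and at 34.3 in exhausted, 52.9 in naive and 26.1 in control, a ratio of 3.67 (3.44 to 3.92). Irf7, the factor that amplifies type I responses, stood at 32.4 CPM against 13.2 CPM, a ratio of 2.46. Zbp1, a sensor of unusual nucleic acids, had a ratio of 2.20, Oasl2 of 2.13, Stat2, a partner of Irf9, of 2.06 and Xaf1 of 2.05. Stat2 lost its call under 4 alternatives, among them TMM scaling, at ratios of 1.93 to 1.996. Xaf1 lost it with TMM scaling, at 1.991, and with the stricter cell filter, at 1.98, and Oasl2 with thinned cells, at 1.98. The chemokine Cxcl10, a partner of Cxcl9 at the same receptor, stood at 273 CPM in aged-injury against 155 CPM in aged, a ratio of 1.76 (1.72 to 1.81). It also stood at 70.8 CPM in exhausted, 60.9 CPM in naive and 111 CPM in control.

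The members with a ratio below 1 were Irf1, Ifitm3, Bst2 and Psmb9. Irf1, a transcription factor that interferon-gamma switches on early, stood at 565 CPM in aged-injury against 910.3 CPM in aged, and at 604 in exhausted, 430.1 in naive and 705 in control, a ratio of 0.620 (0.613 to 0.628). Ifitm3, a membrane protein that blocks virus entry, stood at 786 CPM against 1139 CPM, a ratio of 0.690 (0.683 to 0.697). Bst2, which tethers virus particles, had a ratio of 0.895, and Psmb9, an immunoproteasome subunit, of 0.912. None of these 4 passed the mark. Genes of the dissociation response, a list of 10 such as Fos and Egr1 that cell isolation is known to induce, had a median log2 ratio of -0.41 in the same cells, and their part in the Irf1 ratio was not tested.

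In young mice few members passed the mark after ablation. In naive against control, 1 of 33 measured members, Rtp4, was higher and 2, Cxcl9 and Rsad2, were lower, where 3.72% of 10602 genes were higher and 2.06% were lower. The median log2 ratio was -0.04 over 10 interferon-gamma type members, 0.28 over 6 type I members and 0.13 over all genes. Cxcl9 was 2.21-fold lower in naive, with 3450 UMIs in naive and 18450 in control, and Rtp4 had a ratio of 2.02 (1.88 to 2.18). With TMM scaling 0 members were higher and 3, Cxcl9, Rsad2 and Cxcl10, were lower, where 2.70% and 2.74% of 10534 genes were. Rtp4 lost its call under 5 alternatives, TMM scaling among them, at ratios of 1.84 to 1.99. Rsad2 passed the minimum of 5 CPM only through control, at 5.79 CPM against 1.92 CPM in naive. It lost its call with the stricter gate, with clusters in place of the gate, with thinned cells and with a minimum of 20 CPM. Ifit1 had a ratio of 1.80, Stat2 of 1.58, Irf7 of 1.54 and Isg15 of 1.44, all above 1 and below the mark, while Iigp1 had a ratio of 0.949 and Gbp2 of 0.847. Cxcl10 had a ratio of 0.547 (0.517 to 0.579) and Irf1 of 0.610. Of the 10 dissociation genes 5 were lower in naive, with a median log2 ratio of -0.90, and their part in the Cxcl9, Cxcl10 and Irf1 ratios was not tested.

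In exhausted against control, 0 of 33 members were higher and 2 were lower, where 1.78% of 10437 genes were higher and 1.38% were lower. The 2 genes were Cxcl9, 2.51-fold lower (2.41 to 2.62), and Rsad2, 2.18-fold lower (1.63 to 2.97). This comparison and naive against control share the control library. Rsad2 again passed the minimum of 5 CPM only through control, at 5.79 CPM against 2.66 CPM in exhausted. It lost its call under the same alternatives as in naive against control. Rsad2, which makes an antiviral nucleotide, had 53 UMIs in exhausted, 47 in naive and 343 in control, and a UMI was found in 0.553% of exhausted, 0.334% of naive and 1.27% of control reticular cells thinned to 3000 UMIs. The share was 1.40% in control osteoblast-gated cells thinned alike, so no expression in reticular cells is read from it. The 9 erythroid markers summed to 1070 CPM in reticular cells of exhausted, 377 CPM of naive and 1343 CPM of control, and Rsad2 was at its highest in erythroid cells. Their part in the Rsad2 ratios was not tested.

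In exhausted against naive, 0 of 32 members passed the mark, where 0.837% of 10509 genes were higher and 0.809% were lower. Ratios ran from 0.648 for Irf7 to 1.40 for Irf1. The median log2 ratio of all measured members was -0.08, against -0.07 over all genes.

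Age without injury went with ratios below 1 for 30 of the 33 members measured, none of which reached 2-fold. Gbp9, below 5 CPM in both libraries, stood at 0.486 CPM in aged against 1.32 CPM in control, 2.71-fold lower. In aged against control, 0 of 33 members were higher and 0 were lower, where 0.739% of 10291 genes were higher and 1.07% were lower. Of the 10 interferon-gamma type members measured, 0 had a ratio above 1, and the same held for 0 of the 6 type I members. Their median log2 ratios were -0.31 and -0.34, against -0.03 over all genes. The share of all genes with a ratio below 1 was not counted. The intervals of Gbp5 (0.924 to 1.07), Rsad2 (0.847 to 1.17) and Usp18 (0.810 to 1.12) took in 1. With the TMM factors of 0.958 for aged and 0.975 for control every ratio would lie slightly higher. Cxcl9 had a ratio of 0.578 (0.563 to 0.593), Ifit1 of 0.662 (0.593 to 0.738), Gbp3 of 0.693, Gbp6 of 0.692 and Gbp7 of 0.697. Cxcl10, with a ratio of 1.39 (1.35 to 1.44), Irf1, with 1.29, and Ifi35, with 1.003 (0.923 to 1.09), lay above 1.

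More cells held interferon-gamma type UMIs in aged-injury than in aged, and in both libraries a minority of cells held most of these UMIs. In cells thinned to 3000 UMIs, at least 5 UMIs of interferon-gamma type members were found in 30.7% (29.8 to 31.5) of 12531 aged-injury cells, against 11.4% (10.6 to 12.3) of 5119 aged cells. The share was 11.7% of 1988 exhausted, 11.1% of 2396 naive and 15.9% of 6162 control cells. Thinning left out 1737 aged-injury, 1269 aged, 503 exhausted, 481 naive and 486 control cells as too shallow. Mean counts per cell were 5.76 in aged-injury, 2.46 in aged, 2.23 in exhausted, 2.36 in naive and 3.17 in control. The median was 2 UMIs in aged-injury and 1 in aged, and 10 or more were found in 14.1% and 3.85% of cells. The tenth of cells with the most such UMIs held 54.0% of them in aged-injury and 55.5% in aged. Such a share also depends on the mean count, which differed, so it does not compare the unevenness of these 2 libraries.

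**Figure D3:**
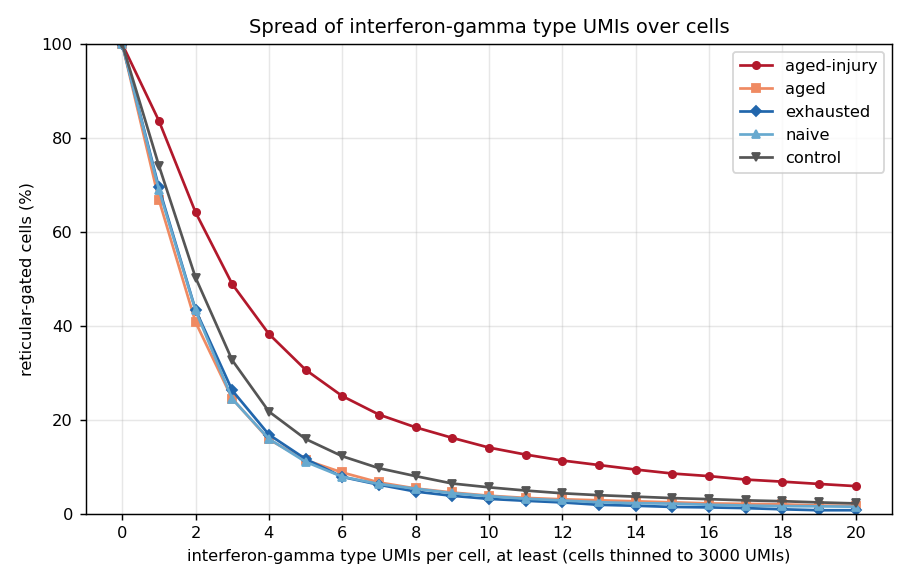
Share of reticular-gated cells (%) with at least the number of interferon-gamma type UMIs on the x axis, all cells thinned to 3000 UMIs, 1 line per library. The aged-injury line lies above the other 4 from 1 UMI on, at 30.7% of cells for 5 UMIs or more against 11.4% in aged.

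Cxcl9 was held by a minority of cells in every library. A Cxcl9 UMI was found in 27.2% (26.4 to 28.0) of aged-injury reticular cells, 10.7% (9.91 to 11.6) of aged, 8.90% of exhausted, 7.72% of naive and 17.2% of control cells at 3000 UMIs, and in 37.5%, 14.9%, 13.6%, 11.8% and 26.0% of the same libraries' cells before thinning. At 10 Cxcl9 UMIs or more, the shares were 5.08% in aged-injury and 1.43% in aged. In erythroid cells, which served as background at the same thinned depth, a Cxcl9 UMI was found in 3.70% of aged-injury, 0.957% of aged, 0.693% of exhausted, 0.439% of naive and 1.42% of control cells, so the reticular share stood above it in every library. Iigp1 was found in 52.6% of aged-injury against 32.7% of aged reticular cells, and in 9.26% against 3.83% of erythroid cells. Ifit1 was found in 7.16% of aged-injury against 2.13% of aged reticular cells, in 2.84% against 0.565% of osteoblast-gated cells and in 6.79% (3.44 to 11.8) against 1.91% of erythroid cells. The erythroid gate led the type I sums, so it gives no clean background for Ifit1.

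Type I UMIs were found more often in the cells that held many interferon-gamma type UMIs. In aged-injury, a type I UMI was found in 31.8% (30.3 to 33.3) of cells with 5 or more interferon-gamma type UMIs, 18.0% of cells with 1 to 4 and 12.2% (10.8 to 13.7) of cells with none. In aged the shares were 20.5%, 11.5% and 7.90%. The order was the same in exhausted, naive and control, where the first class stood at 27.6%, 29.1% and 22.8% and the last at 10.9%, 12.0% and 10.6%. Without Ifit1 and Rsad2 the 3 aged-injury shares were 23.4%, 13.4% and 9.18%. All cells had the same thinned depth, and both readings come from the same molecules of a cell. Over all reticular cells a type I UMI was found in 21.3% of aged-injury, 11.3% of aged, 16% of exhausted, 17.9% of naive and 14.2% of control cells. In osteoblast-gated cells, set beside them as a background, the shares were 8.0%, 5.65%, 11.7%, 8.71% and 18.6% in the same order of libraries, so the control share did not clear it. For exhausted the intervals overlapped, at 14.4 to 17.7 in reticular and 7.29 to 17.5 in osteoblast-gated cells.

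The aged-injury excess of the summed interferon-gamma type level was present in every cluster of reticular cells that could be compared. Cells were also clustered without the members and the other interferon genes, and 9 clusters held at least 50 reticular-gated cells of both aged-injury and aged. They covered 11679 of 14268 aged-injury and 6236 of 6388 aged cells. Among the clusters with too few aged cells, the largest held 1313 aged-injury and 39 aged cells and the next 924 and 2. The summed interferon-gamma type level was higher in aged-injury in all 9, with ratios from 1.54 to 5.26. In the cluster with the smallest ratio, of 1905 cells in each library, it stood at 1387 CPM in aged-injury against 901 CPM in aged. There 2 of 33 members passed the mark, where 0.97% of all genes were higher. These included 0 of 10 interferon-gamma type and 0 of 6 type I members. In the cluster with the largest ratio, of 53 aged-injury and 406 aged cells, the sum stood at 3545 CPM against 674 CPM. There 13 of 32 members passed, where 8.20% of all genes were higher, among them 6 of 10 interferon-gamma type and 2 of 5 type I members. The count of members at least 2-fold higher ran from 2 to 19 within clusters, and the 2 clusters with 19 had 7.46% and 4.42% of all genes higher. In 2 clusters 1 member was lower. The summed type I level was not higher everywhere, and in 1 of the 9 clusters it stood at 103 CPM in aged-injury against 105 CPM in aged.

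**Figure D4:**
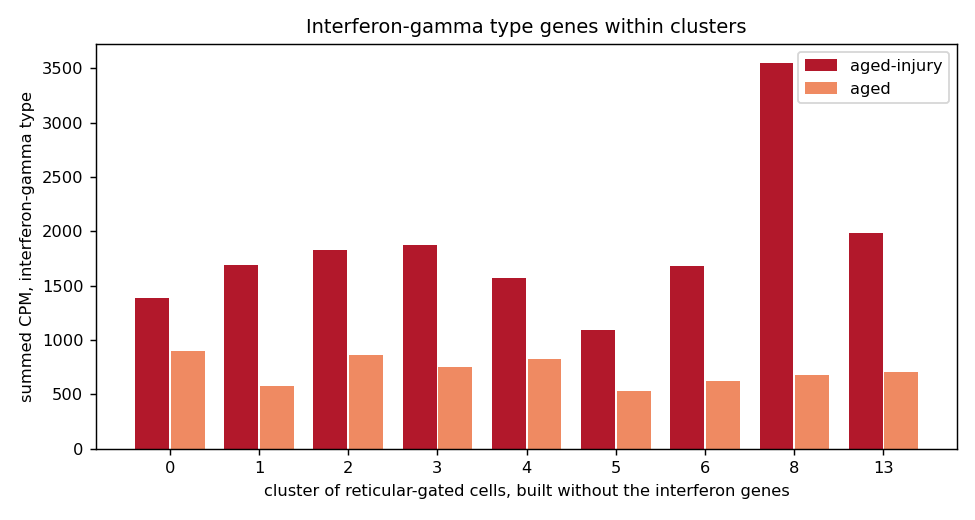
Summed CPM of the 12 interferon-gamma type members in aged-injury (dark red, left bar) and aged (orange, right bar) within each cluster of reticular-gated cells that held at least 50 cells of both libraries. The aged-injury bar is the taller in all 9 clusters, by 1.54-fold to 5.26-fold.

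Reticular cells with transcripts of Kit, the stem cell factor receptor, were most numerous in aged-injury. Of the cells that could be thinned, 950 of aged-injury held a Kit UMI after thinning, while naive had 70 such cells and aged, exhausted and control fewer than 50 each. In aged-injury, cells with a Kit UMI had a mean of 9.65 interferon-gamma type UMIs per 3000, and 48.4% (45.2 to 51.7) held 5 or more. The 11581 cells with no Kit UMI left after thinning had a mean of 5.44, and 29.2% held 5 or more, which is also above the 11.5% of aged cells with none left. In naive the means were 3.14 with and 2.34 without a Kit UMI. Leaving out every cell with a Kit UMI at full depth removed more cells and kept 12384 of aged-injury and 6301 of aged. In these, 15 of 34 members passed the mark as higher in aged-injury, where 3.2% of 10482 genes did.

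Outside the reticular gate, endothelial cells had the highest summed interferon-gamma type level where they could be measured. It stood at 2068 CPM in aged-injury, 1777 CPM in exhausted and 1573 CPM in naive endothelial cells, beside 2016, 791 and 843 CPM in reticular cells of these libraries. The aged and control libraries had fewer than 50 endothelial cells and are given no value. Iigp1 stood at 899, 820.3 and 649 CPM in these 3 endothelial groups, and Irgm1 at 172, 115 and 125 CPM. Neutrophils had the lowest sums, 81.9 to 102 CPM over 4 libraries, and B cells held 199.8 to 264 CPM. Gbp4 and Gbp9 had endothelial levels of 43.5 to 57.1 CPM and 41.9 to 46.9 CPM, and reticular levels of at most 8.16 and 3.04 CPM.

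**Figure D5:**
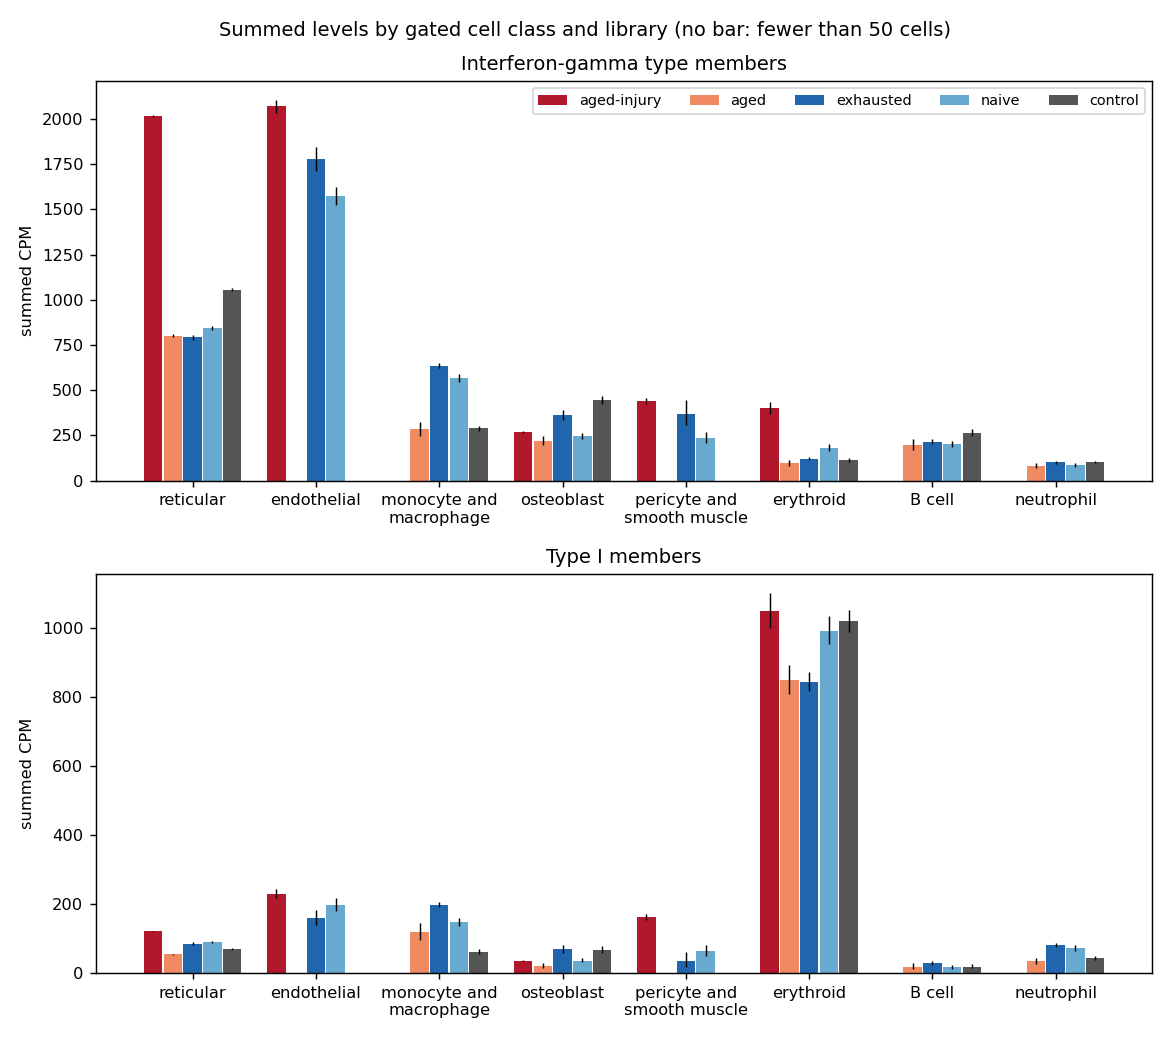
Summed CPM of the 12 interferon-gamma type members (top) and the 7 type I members (bottom) by gated cell class, 1 bar per library with 95% Poisson intervals. Endothelial and aged-injury reticular cells lead the top panel at 1573 to 2068 CPM, and erythroid cells lead the bottom panel at 845 to 1051 CPM.

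In monocytes and macrophages the young ablated libraries were the higher ones. In naive against control, 11 of 35 measured members were higher and 0 lower, where 4.85% of 10560 genes were higher and 2.77% lower, and in exhausted against control 17 of 36 were higher and 0 lower, where 4.36% of 10382 genes were higher and 5.89% lower. Cxcl9 stood at 159 CPM in exhausted, 182 CPM in naive and 47.4 CPM in control, with naive 3.84-fold (3.31 to 4.46) above control. Ifit1 stood at 17.6, 17.3 and 2.42 CPM, and Rsad2 at 53.6, 32.4 and 8.48 CPM, in the same order of libraries. Cxcl9 thus lay above control in these cells and below it in reticular cells of the same libraries, and the difference was not tested. The gate takes in monocytes and macrophages together. Of the 2 largest clusters led by its markers, one held 352 exhausted, 89 naive and 172 control cells and the other 357, 122 and 81, and the part of this mix was not tested. The aged-injury library had 13 such cells and is given no value.

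Osteoblast-gated cells had lower sums than reticular cells in every library, but type I intervals overlapped in control and exhausted. In control the type I sum was 69.0 CPM (60.6 to 78.4) against 71.0 CPM (68.9 to 73.2) in reticular cells. In exhausted it was 70.4 CPM (59.05 to 83.3) against 86.4 CPM (82.4 to 90.6). In aged-injury against aged, 8 of 32 measured members were higher and 2 were lower, where 5.09% of 10761 genes were higher and 12.2% were lower. Iigp1 stood at 69.0 CPM in aged-injury against 31.7 CPM in aged, and Ifit1 at 13.1 CPM against 2.59 CPM, on 4 UMIs in aged. Irf1 was among the lower ones, at 158 CPM in aged-injury against 383 CPM in aged. In aged against control 0 of 32 members were higher and 12 were lower, where 3.24% of 10840 genes were higher and 3.06% were lower, and in naive against control 0 were higher and 8 were lower, where 3.57% and 3.2% of 10743 genes were. The exhausted library went partly the other way. Against control 3 of 33 members were higher and 6 lower, where 3.84% and 2.95% of 10869 genes were, and against naive 5 of 32 were higher and 1 lower, where 2.98% and 1.95% of 10804 genes were. Cxcl9 stood at 19.1 CPM in aged-injury, 2.59 CPM in aged, 64.2 CPM in exhausted, 2.21 CPM in naive and 23.1 CPM in control osteoblast-gated cells.

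Erythroid cells, present despite the sort, had the highest summed type I level, mostly through 1 gene. Their summed type I level was 1051 CPM in aged-injury, 852 in aged, 845 in exhausted, 993 in naive and 1021 in control. Rsad2 alone made up 781 CPM in aged-injury, 707 in aged, 694 in exhausted, 789 in naive and 835 in control, and Isg15 stood at 116 to 170 CPM. In aged-injury against aged, 25 of 32 members were higher in this gate, where 26.3% of 9619 genes were higher and 1.3% lower. The 9 erythroid markers summed to 147750 CPM in the aged-injury erythroid gate against 234101 CPM in the aged one, so the aged-injury gate held less erythroid RNA per UMI, and no response of erythroid cells is read from these counts. Mx1, a GTPase known to be defective in many laboratory strains, stood at 19.4 to 25.9 CPM in monocytes and macrophages and at most 0.589 CPM in reticular cells.

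Few transcripts of the ligands were found in the sorted cells. Over all kept cells, Ifng had 1 UMI in aged-injury, 2 in aged, 34 in exhausted, 0 in naive and 12 in control. The T and NK gate held 0 aged-injury, 15 aged, 48 exhausted, 14 naive and 26 control cells and held 0, 2, 16, 0 and 6 of these UMIs. In exhausted, 12 further Ifng UMIs lay in the endothelial gate, 8.24 CPM over 181 cells, where naive endothelial cells had 0 UMIs. Ifnb1 had 2 UMIs in exhausted, 1 in control and 0 in aged-injury, aged and naive. The sort selects tdTomato-positive cells, so these counts say little about the ligands in the marrow.

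Transcripts of the receptors were found in reticular cells of every library. Of 5 receptor genes measured, 0 passed the mark in either aged-injury against aged or naive against control. Of all genes, 3.59% were higher and 1.66% lower in the first comparison, and 3.72% and 2.06% in the second. A count of 0 of 5 does not set the receptors apart from these shares. Ifngr1 stood at 204 CPM in aged-injury, 204 in aged, 171 in exhausted, 189 in naive and 201 in control. The aged-injury to aged ratio was 0.983 for Ifngr2, 0.993 for Ifnar1, 0.854 for Ifnar2 and 0.790 for Il10rb, and Ifnlr1 stayed below 0.1 CPM. Stat3, a transcription factor of cytokine signalling, stood at 511 CPM in aged-injury against 523 CPM in aged. Socs3, a brake on these receptors, had a ratio of 0.589. Of the 4 brakes measured 0 passed, which does not set them apart from all genes either.

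A few interferon targets outside the list were also higher in aged-injury. In aged-injury against aged, 2 of 12 further interferon-gamma targets were higher, where 3.59% of 10515 genes were. Their median log2 ratio was 0.51, against 0.12 over all genes. Ccl5, a T cell chemokine, stood at 16.6 CPM in aged-injury against 1.25 CPM in aged, a ratio of 13.4 (10.3 to 17.6), and Gbp8 at 7.01 CPM against 2.62 CPM. Of 19 further type I targets 3 were higher, with a median of 0.60: Ifi44 at 71.7 CPM against 23.3 CPM, Oas1a at 6.77 CPM against 0.591 CPM and Cmpk2 at 10.1 CPM against 4.20 CPM. Ccl5, Gbp8, Oas1a and Cmpk2 lay below 5 CPM in aged, so they were measured only through their aged-injury level. The RNA sensor gene Dhx58 stood at 12.9 CPM in aged-injury against 5.01 CPM in aged and at 11.6 CPM in naive against 5.77 CPM in control, the 1 of 7 sensors and adaptors past the mark in both. In naive against control, Mx2 was higher, at 12.9 CPM against 6.30 CPM, and Cd274, the immune checkpoint ligand, was lower, at 3.07 CPM against 7.11 CPM.

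MHC class II genes, which present antigen and are known to be inducible by interferon-gamma, were higher in aged-injury than in aged for 3 of 4, where 3.59% of 10515 genes were. In aged against control all 4 were lower, where 1.07% of 10291 genes were, so the aged reference was low. Cd74 stood at 28.0 CPM in aged-injury against 4.37 CPM in aged, and at 95.6 in exhausted, 24.1 in naive and 32.3 in control. H2-Ab1 stood at 22.8 CPM in aged-injury, 2.53 CPM in aged and 19.3 CPM in control, and H2-Aa at 11.0, 1.92 and 21.9 CPM. These 3 genes lay below 5 CPM in aged, so they were measured only through their aged-injury level. H2-Eb1, short of the mark, stood at 11.6, 6.13 and 19.9 CPM in the same order. In reticular cells of aged-injury and aged, the 13 monocyte and macrophage markers summed to 37.3 and 37.4 CPM. The 13 B cell markers summed to 11.2 and 20.7 CPM there, and the 14 endothelial markers to 79.9 and 68.6 CPM. The part of RNA from such cells in the class II ratios was not tested. In exhausted, naive and control the monocyte and macrophage markers summed to 269, 77.9 and 115 CPM, and their part in the high exhausted level of Cd74 was not tested.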

How the data were processed

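The values deposited by the authors were whole-number UMI counts per gene and cell, 1 matrix per library, with no normalisation. The submitters' processing notes name Seurat 5.1 and build GRCm39, and the counting tool is not given in the sources used here. A cell was kept when it held 500 genes and 1000 UMIs or more, of which under 25% were mitochondrial. No doublet caller was run. Each cell was scored for 16 classes from marker genes, scaled to their 95th percentile, and gated to the top class when its score reached 0.25 with a margin of 0.1 over the next. The check markers took no part. UMIs were summed per gated class of at least 50 cells and given as CPM. Ratios have exact conditional binomial intervals, levels exact Poisson and shares exact Clopper-Pearson intervals, computed with Python 3.11.15 and scipy 1.17.1. The ratio script was tested on simulated data. The alternatives were TMM scaling in edgeR 4.0.16, other cell filters, gates and minimum levels, thinning, and leaving out cells with Ptprc or Kit. All 36 members are named, with pathway genes at least 2-fold different in aged-injury against aged or naive against control. The members and lists were chosen with earlier results of these data known. Coordinates and sequences are RefSeq's for GRCm38.p6, matched by symbol. The ligand genes Ifna1, Ifna2, Ifna4, Ifnl2 and Ifnl3 were not analysed here. A gene of the pathway lists is not reported here.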

Additional observations from a re-analysis of the deposited data

Results flagged for a closer look

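Cxcl9 in reticular cells lay on opposite sides of its reference after ablation at the 2 ages. It was 3.93-fold higher in aged-injury than in aged and had a ratio of 0.453 in naive against control. The difference between the 2 ratios was not tested, since each rests on 1 library per group. The libraries also differ in the time since surgery, 1 week for aged-injury and 2 weeks for naive, so age and time cannot be told apart.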

How the results depend on the processing

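No paired analysis was possible because each group has 1 library and the groups share fewer than 2 replicate numbers. In aged-injury against aged, 14 to 18 members passed the 2-fold mark, all higher, under the 10 alternatives. The count was 14 with TMM scaling, with clusters built without the members and with cells thinned to 3000 UMIs. Under these, in the same order, 3.30%, 5.37% and 2.83% of all measured genes were higher. Over the 10 alternatives that share ran from 2.28% to 5.37%. In naive against control, where 3 members passed, the count was 1 with those clusters and 5 with no minimum CPM, and with TMM scaling the split was 0 higher and 3 lower, since this scaling set the median log2 ratio of all genes to -0.01 in place of 0.13. In exhausted against control, where 2 passed, it was 1 with the stricter gate, with the clusters, with thinned cells and with a minimum of 20 CPM. In aged against control the count was 1 with no minimum CPM, where 1.47% of all genes were higher and 2.77% lower. In exhausted against naive the count was 0 throughout, where 0.383% to 1.26% of all genes were higher and 0.412% to 2.29% lower. Leaving out cells with a Kit UMI was chosen after seeing the data. Of the single ratios under the alternatives, 1576 lay inside the original interval and 224 outside. The alternatives that change only the minimum level, with 180 ratios each, leave every ratio as it was, so these lie inside by construction. Among members that passed the mark, 0 ratios changed direction. For the other members a change of direction was not counted.

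With 1 library per group, differences between animals, surgeries and preparations are not covered. UMIs of 1 cell are not independent, so the intervals are too narrow for genes such as Cxcl9 whose UMIs come from few cells. Thinning to one depth left the direction of the aged-injury counts in place, while batch and group cannot be told apart. Gate thresholds left 7.35% of cells without a class, and 2.61% of reticular cells lay near a threshold.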
